A study of Mus musculus with 4 samples.

Results

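Cells with transcripts of both Procr and Hlf and none of Mki67 were examined as transcriptionally defined stem cells inside sorted long-term hematopoietic stem cell (LT-HSC) libraries. A cell was taken with at least 1 UMI (unique molecular identifier, 1 captured transcript) of Procr, at least 1 UMI of Hlf and 0 UMIs of Mki67. Of 10608 cells kept after filtering (1000 UMIs and 500 genes or more, mitochondrial UMIs not above 10%), 2511 (23.7%) met this rule, and they are called double-positive cells here. The study sequenced LT-HSCs of C57BL/6 mice aged 8 to 11 weeks, sorted by flow cytometry from crushed leg, arm and sternum marrow, with 10x Single Cell 3′ v2 chemistry. There was 1 library for each of 4 genotypes: NPMc+, Flt3-ITD, NPMc+/Flt3-ITD (the double mutant) and Mx (MxCRE), which the submitters name as the control. NPMc+ is the cytoplasmic form of nucleophosmin found in acute myeloid leukemia, and Flt3-ITD is an internal tandem duplication that activates the receptor tyrosine kinase Flt3. The labels do not say how many mice gave each library, whether the mutants carry Cre too, or how Cre was induced, and genotype, library, sort and day cannot be told apart. With 1 library per genotype there is no replicate check, so each comparison gives both values and a fold with an exact 95% interval, which covers counting error only.

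Procr encodes the endothelial protein C receptor, a surface protein by which mouse stem cells are often sorted, and Hlf encodes a basic leucine zipper transcription factor of the most primitive blood cells. Mki67 encodes the Ki-67 protein of dividing nuclei, so a cell without its transcript is less likely to be in division. LT-HSCs are known to divide rarely, to hold the growth-arrest factor p57 (Cdkn1c), and to lose stem cell genes while gaining Cd48, Cd34 and Flt3 as they move towards multipotent progenitors.

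Double-positive cells were most frequent in the Mx library and least frequent in the double mutant. They made up 698 of 2375 kept cells in NPMc+, 29.4% (95% interval 27.6 to 31.3%, Clopper-Pearson, as for all intervals here). In Flt3-ITD they made up 482 of 2393 kept cells, 20.1% (18.6 to 21.8%). In the double mutant they were 362 of 3321, 10.9% (9.86 to 12.0%), and in Mx 969 of 2519, 38.5% (36.6 to 40.4%). The 4 intervals did not overlap. Since a UMI is found more easily in a deep cell, cells with at least 5000 UMIs were also thinned to 5000 UMIs each, which left out 385 shallower cells in NPMc+, 379 in Flt3-ITD, 857 in the double mutant and 550 in Mx. The order stayed the same: 18.7% (17.1 to 20.5%) in NPMc+, 11.5% (10.2 to 13%) in Flt3-ITD, 6.25% (5.33 to 7.28%) in the double mutant and 28.5% (26.5 to 30.5%) in Mx. Without thinning, the same cells gave 31.5% in NPMc+, 22.7% in Flt3-ITD, 13.7% in the double mutant and 43.1% in Mx.

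**Figure D1:**
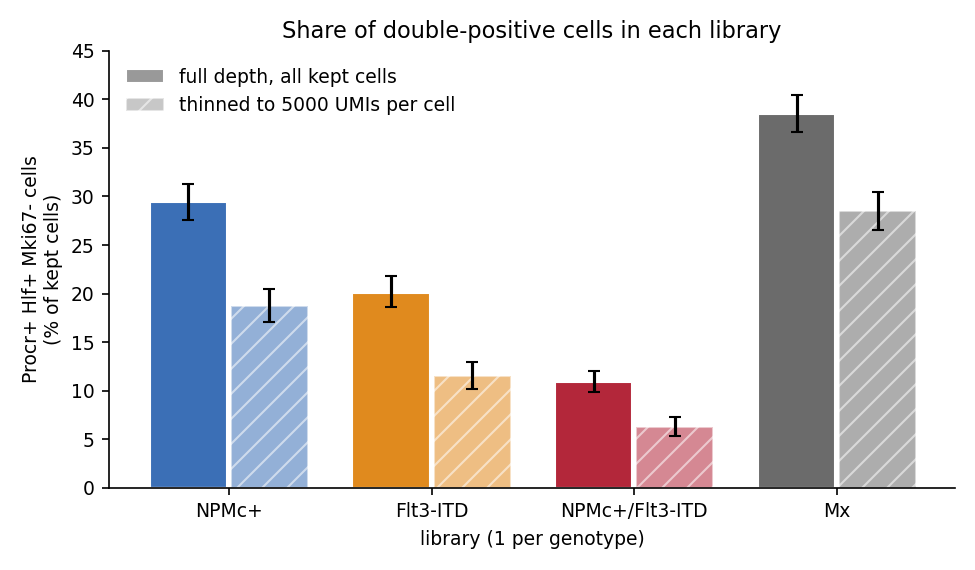
Share of kept cells that were Procr+ Hlf+ Mki67- (vertical axis, %) in each library (horizontal axis, 1 library per genotype), at full depth (plain bars) and after thinning to 5000 UMIs per cell (hatched bars), with exact 95% intervals for counting error as error bars. The double mutant has the lowest bars (10.9% and 6.25%) and Mx the highest (38.5% and 28.5%).

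Both genes contributed to these shares, in different measure. Procr was found in 43.5% of kept cells in NPMc+, 29.9% in Flt3-ITD, 19.1% in the double mutant and 48.5% in Mx. Hlf was found in 55.9% in NPMc+, 56.7% in Flt3-ITD, 39.6% in the double mutant and 76.3% in Mx. At full depth the NPMc+ library was thus close to Mx in Procr and well below it in Hlf. In the thinned cells Procr was found in 31% in NPMc+, 20.1% in Flt3-ITD, 14.1% in the double mutant and 39.7% in Mx. Hlf was found there in 40%, 43.8%, 33.9% and 65.2%, in the same order. At equal depth NPMc+ thus lay below Mx in both genes. Among Hlf-positive cells at full depth, Procr was found in 57.6% in NPMc+ and 54% in Mx, but in 38.9% in Flt3-ITD and 31.4% in the double mutant. The part of depth in these shares was not tested. Cells with neither gene made up 32.8% of NPMc+, 35.5% of Flt3-ITD, 53.8% of the double mutant and 16.4% of Mx. These values chose the cells and are given as a description.

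The threshold of 1 UMI puts many cells close to it. Just inside it, cells with exactly 1 UMI of each gene made up 18.2% of the double-positive cells in NPMc+, 24.1% in Flt3-ITD, 26.5% in the double mutant and 13.5% in Mx. Just outside it, cells with Hlf but no Procr and no Mki67 numbered 460 in NPMc+, 695 in Flt3-ITD, 794 in the double mutant and 800 in Mx. The reverse, Procr without Hlf or Mki67, was seen in 221 cells in NPMc+, 167 in Flt3-ITD, 197 in the double mutant and 172 in Mx. Mki67 alone kept out 67 double-positive cells in NPMc+, 46 in Flt3-ITD, 50 in the double mutant and 69 in Mx. At least 2 UMIs of each gene were found in 288 cells in NPMc+, 126 in Flt3-ITD, 62 in the double mutant and 390 in Mx.

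Free RNA in droplets can give a UMI in a cell that does not express a gene, so the same genes were read in cells that should lack them. Among 777 kept cells with at least 5 UMIs of T cell genes (median 4924 UMIs, 748 of them in the double mutant), Procr was found in 4.63% and Hlf in 9.78%, and 13 cells (1.67%) met the full rule. Among 245 kept cells with at least 5 UMIs of erythroid genes, which are deep at a median of 16341 UMIs, Procr was found in 17.1% and Hlf in 30.2%, and 11 (4.49%) met the rule. The shares of double-positive cells in all 4 libraries lay above both, by the least in the double mutant. Median depth in double-positive cells was 9053 UMIs in NPMc+, 8929 in Flt3-ITD, 9424 in the double mutant and 8199 in Mx, and their summed UMIs were 7088228, 4660987, 3607362 and 8156755 in the same order. In the other kept cells median depth was 9702 UMIs in NPMc+, 8598 in Flt3-ITD, 7077 in the double mutant and 7961 in Mx. Doublets were not removed. The same barcode sequence turned up in more than 1 library 160 times over all barcodes, 52 times among kept cells and 3 times among double-positive cells. By transcripts of Xist and of the Y chromosome, double-positive cells that could be sexed were 72.7% male in NPMc+, 51.9% in Flt3-ITD, 89.9% in the double mutant and 72.8% in Mx, so each library held cells of both sexes.

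Other stem cell genes, not used by the rule, were mostly higher in double-positive cells than in the remaining kept cells of the same library, and so were some progenitor genes. Levels are CPM, the UMIs of a gene summed over the cells of a library and scaled to their UMI total. The 13 other HSC markers summed to 1259 CPM in double-positive NPMc+ cells, against 608 CPM in the other NPMc+ cells. They summed to 643 CPM in double-positive Flt3-ITD cells, against 408 CPM in the other Flt3-ITD cells. In the double mutant the sums were 421 CPM in double-positive cells and 267 CPM in the others, and in Mx 1088 and 753 CPM. Between 11 and 12 of the 13 markers were higher in double-positive cells in each library. Across libraries the picture differed: double-positive double mutant cells, at 421 CPM, stood below the Mx cells left out by the rule, at 753 CPM. Mecom, a zinc finger transcription factor of stem cells, was 1.61-fold higher in double-positive than in other cells in NPMc+, 1.71-fold in Flt3-ITD, 1.78-fold in the double mutant and 1.55-fold in Mx. Slamf1, the CD150 antigen of LT-HSC sorting, was no such marker within the gate: it was 1.12-fold lower in double-positive cells in NPMc+, 1.14-fold lower in Flt3-ITD, 1.2-fold higher in the double mutant and 1.17-fold lower in Mx. The 10 markers of multipotent and lymphoid-primed progenitors did not split the cells as the HSC markers did. Their sums were 1290 CPM in double-positive and 1570 CPM in other NPMc+ cells, 1886 and 2043 CPM in Flt3-ITD, 3799 and 4976 CPM in the double mutant, and 1039 and 1170 CPM in Mx, while 5 to 6 of the 10 genes were higher in double-positive cells. Flt3 itself was 1.63-fold higher in double-positive than in other cells in NPMc+, 1.74-fold in Flt3-ITD, 1.4-fold in the double mutant and 1.5-fold in Mx. In the double mutant the progenitor genes Cd34 and Cd48 were also higher in double-positive cells, by 1.28-fold and 1.12-fold.

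Erythroid, megakaryocyte, T or NK and mast cell markers were lower in double-positive than in other cells in all 4 libraries, while B cell, granulocyte, monocyte and endothelial markers were not. Erythroid markers summed to 50.6 CPM in double-positive NPMc+ cells, 15 in Flt3-ITD, 9.7 in the double mutant and 24.4 CPM in Mx, against 242, 95.3, 79.1 and 157 CPM in the other cells of the same libraries. Megakaryocyte markers summed to 293 CPM in double-positive NPMc+ cells, 84.3 in Flt3-ITD, 87.9 in the double mutant and 140 CPM in Mx, against 918, 195, 108 and 243 CPM in the other cells. T or NK cell markers summed to 242 CPM in double-positive NPMc+ cells, 211 in Flt3-ITD, 640 in the double mutant and 105 CPM in Mx, against 515, 338, 1432 and 219 CPM in the other cells. Of that list, Cd3e, Cd3g, Trbc2 and Ncr1 were at 0 in double-positive double mutant cells. Mast cell or basophil markers summed to 71 CPM in double-positive NPMc+ cells, 21.7 in Flt3-ITD, 147 in the double mutant and 9.44 CPM in Mx, against 132, 60.5, 738 and 26.2 CPM in the other cells. B cell markers summed to 2193 CPM in double-positive NPMc+ cells, 62.2 in Flt3-ITD, 128 in the double mutant and 52.7 CPM in Mx, against 1082, 92.7, 211 and 48.3 CPM in the other cells. A single cell held 87.4% of these UMIs among double-positive NPMc+ cells, and without it the sum was 278 CPM, against 285 CPM in the other NPMc+ cells without their own highest cell. Pax5 and Igll1 were at 0 in double-positive NPMc+ cells. Granulocyte markers summed to 776 CPM in double-positive and 535 CPM in other NPMc+ cells, 646 and 719 CPM in Flt3-ITD, 547 and 628 CPM in the double mutant, and 665 and 733 CPM in Mx. Monocyte markers were near level, with sums of 413 CPM in double-positive and 417 CPM in other NPMc+ cells, and 411 and 386 CPM in Mx. Endothelial markers summed to 200 CPM in double-positive and 155 CPM in other NPMc+ cells, 212 and 187 CPM in Flt3-ITD, 198 and 209 CPM in the double mutant, and 237 and 194 CPM in Mx, with Cdh5 at 0 in double-positive cells of every library. Stromal markers did not pass 3.68 CPM in the double-positive cells of any library, or 3.91 CPM in the other cells.

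Next came the 2 mutated genes themselves. Npm1 encodes nucleophosmin and lies on the minus strand of chromosome 11 at 33152287 to 33163206 (mm10). Its level was 1671 CPM in NPMc+, 1678 in Flt3-ITD, 2179 in the double mutant and 1489 CPM in Mx double-positive cells. The Npm1-like pseudogene Gm5611 (chromosome 9, 17030045 to 17030896, plus strand), chosen after its values were seen, stood at 1139 CPM in NPMc+ and 687 CPM in the double mutant, against 1.07 CPM in Flt3-ITD and 1.59 CPM in Mx. It reaches a mean of 10 CPM over the libraries only through those that carry NPMc+. Flt3, the receptor gene on the minus strand of chromosome 5 at 147330741 to 147400489, stood at 17.8 CPM in NPMc+, 47.8 in Flt3-ITD, 94.3 in the double mutant and 37.6 CPM in Mx. The counts under the names Npm1 and Flt3 do not tell mutant from normal transcripts. Whether some NPMc+ transcripts were counted under Gm5611 was not tested, so the Npm1 level may not hold all of them.

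Genotype ratios were then taken among double-positive cells alone, over 8545 genes with a mean of at least 10 CPM over the 4 libraries. A gene was counted as different from 2-fold, and gene lists from 1.5-fold. A gene with a high level in 1 library and almost none elsewhere passes the floor only through that library, so such a gene had to differ. The 3 mutant comparisons share the Mx library. In NPMc+ 145 genes (1.7% of those measured) lay above Mx by 2-fold or more and 145 (1.7%) lay below it by as much. In Flt3-ITD 206 (2.41%) were higher and 159 (1.86%) lower, and in the double mutant 410 (4.8%) were higher and 516 (6.04%) lower. At 1.5-fold, which the gene list counts use, the shares of all genes were 4.49% higher and 8.38% lower in NPMc+, 4.83% higher and 8.34% lower in Flt3-ITD, and 16.3% higher and 11.9% lower in the double mutant. The share of higher genes among those 2-fold apart depended on the scaling. In NPMc+ it was 50% by total UMIs, 57.8% with TMM factors (edgeR's trimmed mean of ratios) and 38.4% with mitochondrial and ribosomal protein genes left out of the total. In Flt3-ITD the same shares were 56.4%, 65.3% and 45.3%, and in the double mutant 44.3%, 36.3% and 29.2%. The median gene lay at -0.03 (log2) in NPMc+, -0.07 in Flt3-ITD and 0.16 in the double mutant, so list medians in the double mutant are read against 0.16.

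**Figure D2:**
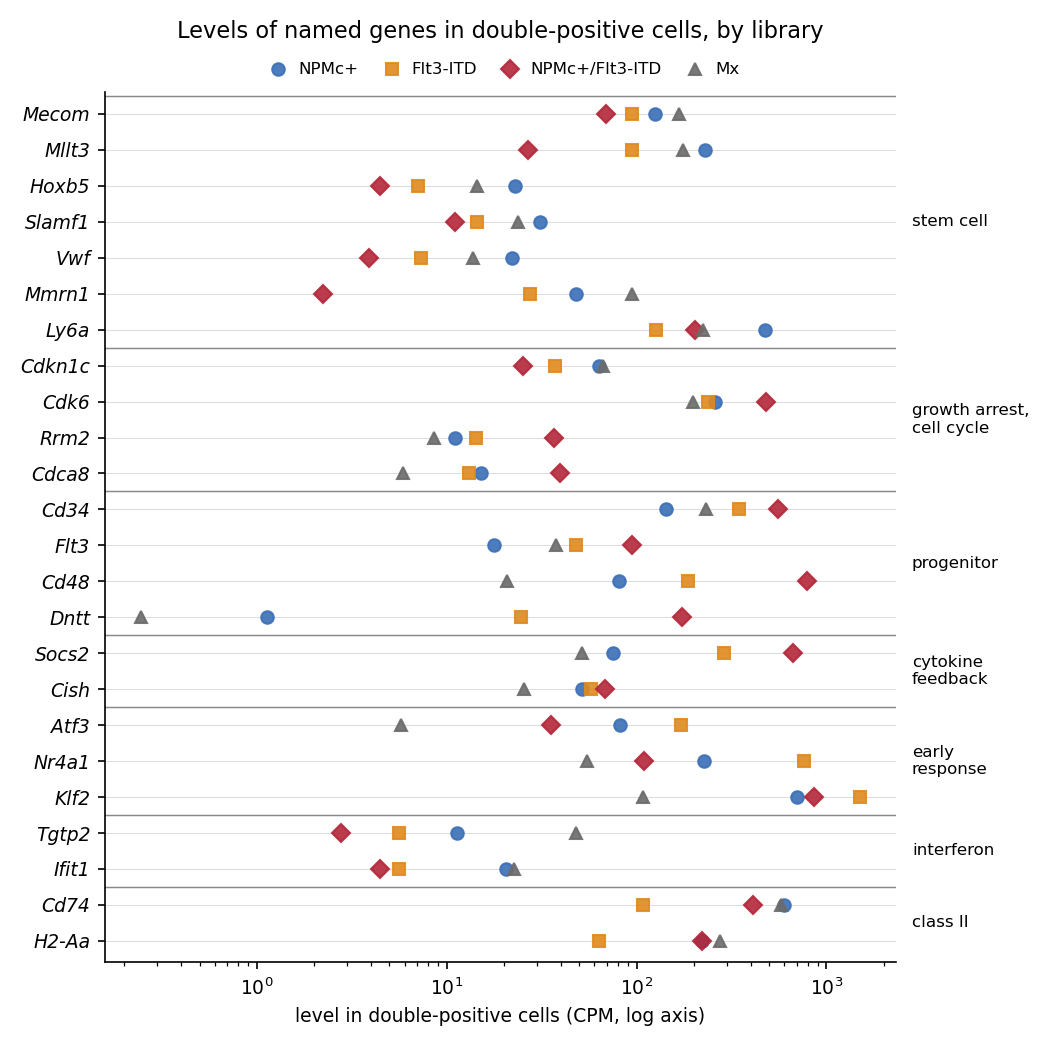
Level (horizontal axis, CPM, log axis) of 24 named genes (rows, grouped by role) in the double-positive cells of each library (1 symbol per library). The double mutant has the lowest level in the stem cell group except for Ly6a and the highest in Cd34, Flt3, Cd48, Dntt, Socs2, Cish, Cdk6, Rrm2 and Cdca8, while Flt3-ITD has the highest Atf3, Nr4a1 and Klf2 and the lowest Cd74 and H2-Aa.

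In NPMc+ double-positive cells the stem cell genes were largely held and several were higher than in Mx. Of 51 genes on the LT-HSC identity list, 47 were measured: 7 lay above Mx by 1.5-fold or more, 4 lay below by as much, and the list's median was -0.04. In the other kept cells of the same libraries, where 3.86% of all genes were at least 1.5-fold higher and 11.9% lower, 8 of these 47 were higher and 13 lower, with a median of -0.22. Ly6a, which encodes the Sca-1 surface antigen, stood at 475 CPM in NPMc+ and 223 CPM in Mx, 2.14-fold higher (2.02 to 2.26). Sult1a1, a sulfotransferase gene found in mouse stem cell profiles, stood at 149 CPM in NPMc+ and 45.6 CPM in Mx, 3.28-fold higher (2.91 to 3.7). Mllt3, a chromatin reader that maintains stem cells, stood at 230 CPM in NPMc+ and 176 CPM in Mx, 1.3-fold higher among double-positive cells but 1.42-fold lower among the other cells. Hoxb5, a homeobox gene of LT-HSCs, stood at 23 CPM in NPMc+ and 14.5 CPM in Mx. Not every stem cell gene was held. Mecom stood at 125 CPM in NPMc+ and 168 CPM in Mx, 1.34-fold lower, and Mmrn1, which encodes the platelet protein multimerin, at 48 CPM in NPMc+ and 94.2 CPM in Mx, 1.96-fold lower.

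Cdkn1c, the p57 inhibitor of cyclin-dependent kinases, was nearly level in these cells, at 63.5 CPM in NPMc+ and 66.3 CPM in Mx, a 1.04-fold difference against a 1.75-fold one among the other cells. Flt3 was 2.12-fold lower (1.72 to 2.63) and Cd34, a sialomucin gained by progenitors, was 1.63-fold lower, at 143 CPM in NPMc+ and 233 CPM in Mx. Cd48, a SLAM family antigen that the LT-HSC gate usually excludes, ran the other way at 80.7 CPM in NPMc+ and 20.7 CPM in Mx, 3.89-fold higher. Of 40 measured genes for G1/S and S phase, 0 were higher and 4 lower, with a median of -0.25. Of 52 listed G2/M genes 25 were measured, and 6 of these were higher and 2 lower, with a median of 0.15. A gene of division stood out among these: Birc5, which encodes survivin, stood at 15 CPM in NPMc+ and 2.57 CPM in Mx, 5.81-fold higher. Cdkn2c, the p18 inhibitor of Cdk4 and Cdk6, stood at 67.6 CPM in NPMc+ and 13.9 CPM in Mx, 4.88-fold higher.

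Homeobox genes were higher in NPMc+ as a group. Of 13 measured genes on the Hox and cofactor list, 7 were higher and 0 lower, with a median of 0.67. Nkx2-3, a homeobox factor known from spleen and gut development, stood at 224 CPM in NPMc+ and 81.5 CPM in Mx, 2.75-fold higher (2.51 to 3.01). Hoxa5 stood at 51.6 CPM in NPMc+ and 25.6 CPM in Mx, 2.02-fold higher, and Hoxa7 at 101 CPM in NPMc+ and 61.2 CPM in Mx, 1.65-fold higher. Hoxb2, of the other large cluster, stood at 33.9 CPM in NPMc+ and 20.8 CPM in Mx, 1.62-fold higher. Hoxa9, which cooperates with Meis1 in leukemia, was closer to level, at 175 CPM in NPMc+ and 139 CPM in Mx. Meis1 itself was lower, at 270 CPM in NPMc+ and 366 CPM in Mx.

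Megakaryocyte genes were higher in NPMc+ among double-positive cells too, by less than among the others. Of 24 measured genes on the megakaryocyte and platelet list, 12 were higher and 1 lower with a median of 0.62, against 16 and 2 with a median of 0.76 among the other cells. Pf4, platelet factor 4, stood at 187 CPM in NPMc+ and 70.2 CPM in Mx, 2.66-fold higher (2.41 to 2.94) against 5.7-fold among the other cells. Itga2b, the integrin chain CD41, stood at 135 CPM in NPMc+ and 45.5 CPM in Mx, 2.96-fold higher. Selp, the adhesion protein P-selectin of platelets, stood at 66.9 CPM in NPMc+ and 30.9 CPM in Mx, 2.16-fold higher. Tuba8, an alpha tubulin, stood at 19.9 CPM in NPMc+ and 3.43 CPM in Mx, and Gata1, the erythroid and megakaryocytic transcription factor, at 23.1 CPM in NPMc+ and 5.64 CPM in Mx. Vwf, von Willebrand factor, which marks platelet-biased stem cells, stood at 22.1 CPM in NPMc+ and 13.7 CPM in Mx, 1.61-fold higher.

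Among ranked genes the highest ratio in NPMc+ belonged to Jchain, which joins immunoglobulin chains in plasma cells, and its UMIs came almost wholly from 1 cell. Jchain had 2111 UMIs in NPMc+ (298 CPM) and 3 UMIs in Mx (0.368 CPM), but 2037 of the 2111 UMIs lay in a single cell of 28824 UMIs. That cell also held 11522 of 12820 UMIs of Igkc, the kappa light chain, which the ranking left out as an immunoglobulin segment. Without that cell Jchain stood at 10.5 CPM in NPMc+, 28.5-fold higher than in Mx (9.38 to 141). Igkc, at 1809 CPM in NPMc+ with the cell, stood at 184 CPM without it and 0.245 CPM in Mx, 750-fold higher (207 to 6199). Thinned to 5000 UMIs, 4.63% of NPMc+ double-positive cells had a Jchain UMI and 58.1% an Igkc UMI, against 0.118% of Mx cells for either gene. The other NPMc+ cells, without their own highest cell, had like levels of 11.1 CPM for Jchain and 186 CPM for Igkc. Doublets were not removed, and the parts of doublets and of free RNA in these values were not tested. Without this cell, an alternative chosen after the data had been seen, 144 genes were 2-fold higher in NPMc+ than in Mx. Ms4a3, a granulocyte and monocyte progenitor gene, stood at 49.4 CPM in NPMc+ and 3.06 CPM in Mx, 16.1-fold higher (10.7 to 25.2). Hspa1a, a heat shock protein that shares nearly all its sequence with a neighbouring copy and is counted with that uncertainty, stood at 147 CPM in NPMc+ and 11 CPM in Mx, 13.3-fold higher. Among the genes furthest below Mx were Rab26os, an antisense RNA counted here without a stated strand setting, at 4.23 CPM in NPMc+ and 38.9 CPM in Mx, 9.18-fold lower (6.31 to 13.8). Serpinf1, a secreted serpin, stood at 29.9 CPM in NPMc+ and 109 CPM in Mx, 3.64-fold lower.

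Immediate-early genes were higher in all 3 mutants and most of all in Flt3-ITD. These are transcription factors and feedback genes switched on within minutes of a stimulus, also by tissue dissociation and sorting. Of 30 measured genes, 19 were higher and 0 lower in NPMc+ (median 1.05), 25 higher and 0 lower in Flt3-ITD (median 1.5), and 16 higher and 2 lower in the double mutant (median 0.68). Klf2, a Krüppel-like factor linked to quiescence, stood at 700 CPM in NPMc+, 1504 in Flt3-ITD, 863 in the double mutant and 108 CPM in Mx, which is 6.46-fold, 13.9-fold and 7.96-fold higher in the mutants. Atf3, a stress transcription factor, stood at 81.4 CPM in NPMc+, 171 in Flt3-ITD, 35.5 in the double mutant and 5.76 CPM in Mx, 29.6-fold higher (22.1 to 40.7) in Flt3-ITD. Nr4a1, an orphan nuclear receptor, stood at 226 CPM in NPMc+, 762 in Flt3-ITD, 109 in the double mutant and 54.8 CPM in Mx. Btg2, an antiproliferative gene, stood at 289 CPM in NPMc+, 541 in Flt3-ITD, 465 in the double mutant and 67.1 CPM in Mx. Per cell, after thinning to 5000 UMIs, the list gave a median of 87 UMIs in NPMc+ (10th to 90th percentile 47 to 139), 115 in Flt3-ITD (66 to 193), 81 in the double mutant (38 to 140) and 37 in Mx (18 to 69). The middle of each mutant library thus lay above the 90th percentile of Mx, and the difference was not made by a few cells.

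**Figure D3:**
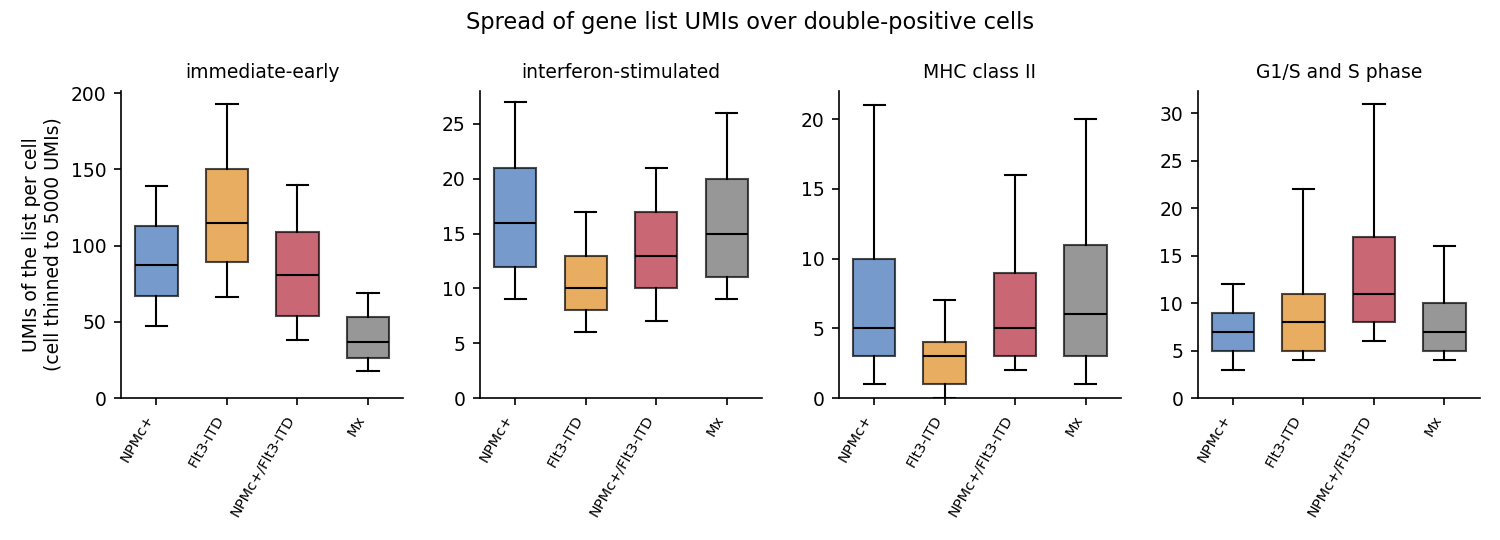
UMIs of 4 gene lists per double-positive cell thinned to 5000 UMIs (vertical axes), by library (horizontal axes); boxes run from the 25th to the 75th percentile with the median as a line and whiskers from the 10th to the 90th. Immediate-early UMIs are lowest in Mx (median 37) and highest in Flt3-ITD (115), MHC class II UMIs are lowest in Flt3-ITD (3) and G1/S and S phase UMIs are highest in the double mutant (11).

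In Flt3-ITD double-positive cells, interferon-stimulated genes and MHC class II genes were lower than in Mx, and stem cell genes were lower in part. Of 48 measured genes on the interferon list, 0 were higher and 28 lower, with a median of -0.73 (-0.69 among the other cells). Tgtp2, an interferon-gamma induced GTPase with a near-identical neighbour (chromosome 11), stood at 11.4 CPM in NPMc+, 5.58 in Flt3-ITD, 2.77 in the double mutant and 47.8 CPM in Mx, 8.57-fold lower (5.76 to 13.3) in Flt3-ITD. Ifit1, an antiviral RNA-binding protein gene (chromosome 19), stood at 20.5 CPM in NPMc+, 5.58 in Flt3-ITD, 4.44 in the double mutant and 22.7 CPM in Mx, 4.07-fold lower (2.69 to 6.39) in Flt3-ITD. Igtp, another GTPase of this family (chromosome 11), stood at 57.1 CPM in NPMc+, 31.1 in Flt3-ITD, 85.9 in the double mutant and 74.4 CPM in Mx, so it was 2.39-fold lower in Flt3-ITD and 1.15-fold higher in the double mutant. In NPMc+ 1 interferon gene was higher and 8 lower (median -0.16), and in the double mutant 0 were higher and 21 lower (median -0.49). Ifit1 showed a difference that double-positive cells did not share: in NPMc+ it was 1.11-fold lower among double-positive cells and 2.63-fold lower among the others.

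The promoters of these 3 interferon genes are shown because they hold a match to the letters of the interferon response element. Each window runs from 250 bases before to 50 bases after the start site (RefSeq, GRCm38.p6), read on the gene's strand, and capitals mark the motif searched, GAAA, any 2 bases and GAAA again, on either strand. Tgtp2 lies at chr11:49064163-49064462 (minus strand), Ifit1 at chr19:34640639-34640938 (plus strand) and Igtp at chr11:58199306-58199605 (plus strand).
Tgtp2: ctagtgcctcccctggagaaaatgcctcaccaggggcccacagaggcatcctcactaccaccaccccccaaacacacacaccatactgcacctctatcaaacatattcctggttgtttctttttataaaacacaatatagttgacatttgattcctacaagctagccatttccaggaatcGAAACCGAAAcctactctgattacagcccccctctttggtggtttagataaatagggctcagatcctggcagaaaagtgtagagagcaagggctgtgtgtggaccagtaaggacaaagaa
Ifit1: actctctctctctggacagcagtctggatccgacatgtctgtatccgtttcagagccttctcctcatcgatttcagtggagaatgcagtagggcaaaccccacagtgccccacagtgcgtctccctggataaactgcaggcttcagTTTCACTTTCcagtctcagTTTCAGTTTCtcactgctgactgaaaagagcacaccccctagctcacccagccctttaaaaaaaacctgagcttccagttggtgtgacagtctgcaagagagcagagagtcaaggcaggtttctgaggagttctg
Igtp: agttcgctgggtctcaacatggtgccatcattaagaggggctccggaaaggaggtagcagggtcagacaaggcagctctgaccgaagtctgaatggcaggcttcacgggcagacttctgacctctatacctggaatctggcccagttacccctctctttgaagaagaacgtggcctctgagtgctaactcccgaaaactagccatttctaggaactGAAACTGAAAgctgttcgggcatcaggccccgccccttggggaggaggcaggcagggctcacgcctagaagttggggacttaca
The match nearest to the start site begins 70 bases before it in Tgtp2, 85 in Ifit1 (which has 2 matches) and 34 in Igtp. The motif was found in 1131 of 32851 promoter windows (3.44%) and in the windows of 266 of 6646 measured genes (4%). Of the 48 measured interferon genes, 9 had no window and 39 had one, and 22 of these 39 (56.4%) held the motif. Of the 28 that were at least 1.5-fold lower in Flt3-ITD double-positive cells 20 had a window, and 15 of these held the motif (75%). Among the other 19 with a window it was 7 (36.8%). The difference between these shares was not tested. A match describes the letters of the window and is no evidence of binding.

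MHC class II genes, which present antigen and are present in part of the stem cell pool, were lower in Flt3-ITD. Of 8 measured genes, 1 was higher and 5 lower in Flt3-ITD, with a median of -0.9; in male cells alone the median was -1.15 and in female cells alone -0.24. Cd74, the invariant chain, stood at 599 CPM in NPMc+, 108 in Flt3-ITD, 412 in the double mutant and 576 CPM in Mx, 5.35-fold lower (4.88 to 5.87) in Flt3-ITD. H2-Aa, a class II alpha chain, stood at 220 CPM in NPMc+, 63.3 in Flt3-ITD, 222 in the double mutant and 275 CPM in Mx. H2-Eb1, a beta chain, stood at 107 CPM in NPMc+, 23.8 in Flt3-ITD, 120 in the double mutant and 154 CPM in Mx, 6.49-fold lower in Flt3-ITD. The gene that ran the other way was H2-Ob, part of the H2-O complex that restrains peptide loading, at 21.9 CPM in Flt3-ITD and 9.19 CPM in Mx. Thinned cells gave a median of 3 class II UMIs in Flt3-ITD (10th to 90th percentile 0 to 7), against 6 in Mx (1 to 20), so the upper end of the range was lower too. Of 22 measured genes for MHC class I and peptide loading, 0 were higher and 6 lower in Flt3-ITD. Near-identical H2 genes can share reads, and their levels are uncertain to that extent.

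Stem cell genes in Flt3-ITD double-positive cells were mostly lower than in Mx or near it. The LT-HSC identity list had 2 of 47 genes higher and 21 lower, with a median of -0.4. Mecom stood at 94.2 CPM in Flt3-ITD and 168 CPM in Mx, 1.78-fold lower. Ly6a stood at 127 CPM in Flt3-ITD and 223 CPM in Mx, 1.75-fold lower, the opposite of its place in NPMc+. Mmrn1 stood at 27.5 CPM in Flt3-ITD and 94.2 CPM in Mx, 3.43-fold lower. Of the 13 Hox and cofactor genes, 0 were higher and 8 lower with a median of -0.75, also the reverse of the count in NPMc+. Hoxb5 stood at 7.08 CPM in Flt3-ITD and 14.5 CPM in Mx, and Hoxb2 at 10.1 CPM in Flt3-ITD and 20.8 CPM in Mx. Meg3, an imprinted noncoding RNA of stem cells, stood at 14.8 CPM in Flt3-ITD and 53.9 CPM in Mx, 3.64-fold lower.

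Some feedback and progenitor genes were higher in Flt3-ITD. Socs2, a STAT5-induced suppressor of cytokine signalling, stood at 288 CPM in Flt3-ITD and 51.7 CPM in Mx, 5.57-fold higher (4.98 to 6.22), and Cish, another STAT5 target, at 57.3 CPM in Flt3-ITD and 25.4 CPM in Mx, 2.26-fold higher. Of 23 measured genes on the STAT5 and cytokine feedback list, 10 were higher and 1 lower, with a median of 0.38. Id3 and Id1 encode inhibitors of basic helix-loop-helix factors. Id3 stood at 51.3 CPM in Flt3-ITD and 2.45 CPM in Mx, 20.9-fold higher (13.2 to 34.9). Id1 stood at 99.8 CPM in Flt3-ITD and 5.64 CPM in Mx, 17.7-fold higher (13 to 24.5). Cdkn1a, the p21 inhibitor, stood at 189 CPM in Flt3-ITD and 18.9 CPM in Mx, 10.0-fold higher (8.43 to 12.0). Dntt, the terminal transferase of lymphoid progenitors, had 115 UMIs in Flt3-ITD (24.7 CPM) and 2 UMIs in Mx (0.245 CPM), 101-fold higher (27.2 to 841). Its Flt3-ITD UMIs lay in 50 cells, and the 10 highest of these held 49.6% of them. Cd48 stood at 186 CPM in Flt3-ITD and 20.7 CPM in Mx, 8.96-fold higher. Most progenitor genes were nearer to level: of 22 measured lymphoid and multipotent progenitor genes, 6 were higher, 2 lower and 14 within 1.5-fold, with a median of 0.17. Of 40 G1/S and S phase genes 1 was higher and 0 were lower, while of 25 G2/M genes 7 were higher and 1 lower. Birc5, of the G2/M list, stood at 11.4 CPM in Flt3-ITD and 2.57 CPM in Mx, 4.42-fold higher (2.62 to 7.71).

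Double mutant double-positive cells had the lowest median of the stem cell list, although Procr and Hlf had been required of every cell. On the LT-HSC identity list, 5 of 47 genes were higher and 26 lower than in Mx, with a median of -0.76 against 0.16 for all genes. Among the other cells, where 11.3% of all genes were at least 1.5-fold higher and 10.3% lower, 6 were higher and 28 lower, with a median of -1.09. Mllt3 stood at 26.9 CPM in the double mutant and 176 CPM in Mx, 6.56-fold lower (5.34 to 8.14). Mecom stood at 69.3 CPM in the double mutant and 168 CPM in Mx, 2.42-fold lower (2.11 to 2.78). Fgd5, a guanine nucleotide exchange factor used as a stem cell reporter locus, stood at 1.66 CPM in the double mutant and 11.6 CPM in Mx, 7.0-fold lower (3.1 to 19.6). Mmrn1 stood at 2.22 CPM in the double mutant and 94.2 CPM in Mx, 42.5-fold lower (21.4 to 98.7). Vwf stood at 3.88 CPM in the double mutant and 13.7 CPM in Mx, 3.54-fold lower. Adgrl4, an adhesion receptor of endothelium and stem cells, stood at 41.3 CPM in the double mutant and 276 CPM in Mx, 6.69-fold lower. Ly6a was near level, at 202 CPM in the double mutant and 223 CPM in Mx. The summed UMIs of the list hid this: thinned cells gave a median of 54 in the double mutant and 53 in Mx, while most single genes were lower.

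Several genes were almost absent from double mutant double-positive cells. Meg3 had 0 UMIs in the double mutant against 53.9 CPM in Mx, at least 64.9-fold lower by a floor of 3 counts per library. Ndn, the growth suppressor necdin, stood at 1.66 CPM in the double mutant and 31.9 CPM in Mx, 19.2-fold lower. Grb10, an adaptor that restrains growth factor signalling, stood at 1.66 CPM in the double mutant and 35.6 CPM in Mx, 21.4-fold lower (9.7 to 58.7). Bex4 stood at 1.66 CPM in the double mutant and 54.7 CPM in Mx, 32.9-fold lower. Fhl1, a LIM domain protein gene, had 1 UMI in the double mutant (0.277 CPM) and stood at 26.7 CPM in Mx, 96.4-fold lower (17.1 to 3825). Wfdc2, a whey acidic protein family gene, had 0 UMIs in the double mutant against 26.7 CPM in Mx, at least 32.1-fold lower. Wdr89 and Ndufb4 were also lower, at 38 CPM in the double mutant and 740 CPM in Mx for Wdr89, and at 10.3 CPM in the double mutant and 106 CPM in Mx for Ndufb4.

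Cell cycle genes were higher in double mutant double-positive cells, despite the rule of 0 Mki67. Of 40 measured G1/S and S phase genes, 31 were higher and 1 lower than in Mx, with a median of 0.81, and of 25 G2/M genes 18 were higher and 2 lower, with a median of 0.92. Only these 25 of 52 listed G2/M genes passed the floor, which was set on double-positive cells. Birc5, for one, passed it only through the double mutant, so the G2/M count leans towards higher genes to an extent that was not tested. The same limit holds for the contrast with the other cells. Median depth differed too, at 9424 UMIs in double-positive and 7077 in other double mutant cells, against 8199 and 7961 in Mx. The part of depth in the contrast was not tested. Among all other kept cells the same lists gave 0 higher and 2 lower (median 0.1) and 3 higher and 1 lower (median 0.16). Once the other cells were held to 0 UMIs of Mki67 as well (12.1% of all genes 1.5-fold higher and 10.5% lower), they gave 1 higher and 2 lower (median 0.17) for G1/S and S phase and 10 higher and 0 lower (median 0.43) for G2/M. Rrm2, the ribonucleotide reductase subunit of S phase, stood at 36.6 CPM in the double mutant and 8.58 CPM in Mx, 4.26-fold higher (3.17 to 5.78). Cdca8, the chromosomal passenger protein borealin, stood at 39.4 CPM in the double mutant and 5.88 CPM in Mx, 6.69-fold higher. Birc5 stood at 24.9 CPM in the double mutant and 2.57 CPM in Mx, 9.69-fold higher (5.98 to 16.4), against 1.15-fold among the other cells and 4.12-fold among other cells without Mki67. Ccnb2, a mitotic cyclin, stood at 64.6 CPM in the double mutant and 5.15 CPM in Mx, 12.5-fold higher (9.0 to 17.9), against 1.63-fold among the other cells and 4.03-fold among those without Mki67. Few cells carried these mitotic genes: in the double mutant 40 cells had a Birc5 UMI and 58 a Ccnb2 UMI, and the 10 highest held 54.4% and 48.9% of the UMIs.

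Cells with a UMI of any of 9 cycling genes made up 50% of double-positive cells in NPMc+, 38.6% in Flt3-ITD, 55% in the double mutant and 29.9% in Mx. Thinned to 5000 UMIs, the shares were 32.9% in NPMc+, 24.2% in Flt3-ITD, 36.2% in the double mutant and 22% in Mx, and in the other cells 47.8%, 41.1%, 41.7% and 36.4%. Leaving those cells out lowered the double mutant medians to 0.45 for G1/S and S phase and 0.26 for G2/M. Some of the 9 genes, Birc5, Cdk1 and Top2a among them, are on the G2/M list. Without those cells they had no UMIs and counted as no difference, so part of the G2/M fall was fixed in advance. Thinned double-positive cells held a median of 11 G1/S and S phase UMIs in the double mutant (10th to 90th percentile 6 to 31), against 7 in Mx (4 to 16). Cdk6, the kinase that governs exit from quiescence, stood at 481 CPM in the double mutant and 198 CPM in Mx, 2.42-fold higher (2.26 to 2.59). Cdkn1c was 2.63-fold lower (2.1 to 3.32), at 25.2 CPM in the double mutant and 66.3 CPM in Mx. Ccnd1, cyclin D1, ran against the other cycle genes at 2.22 CPM in the double mutant and 27.1 CPM in Mx, 12.2-fold lower (6.09 to 28.7).

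Several progenitor and feedback genes were higher in double mutant double-positive cells, by larger folds than in either single mutant. Cd48 stood at 793 CPM in the double mutant and 20.7 CPM in Mx, 38.3-fold higher (32.8 to 45). Cd34 stood at 553 CPM in the double mutant and 233 CPM in Mx, 2.38-fold higher, and Flt3 was 2.5-fold higher (2.14 to 2.93). Dntt had 625 UMIs in the double mutant (173 CPM) and 2 UMIs in Mx (0.245 CPM), 707-fold higher (195 to 5848). Of 30 listed lymphoid and multipotent progenitor genes 22 were measured, and 11 of these were higher and 2 lower, with a median of 0.58. Dntt, for one, passed the floor only through the double mutant, so this count leans towards higher genes to an extent that was not tested. Socs2 stood at 669 CPM in the double mutant and 51.7 CPM in Mx, 12.9-fold higher (11.7 to 14.4). Osm, the cytokine oncostatin M and a STAT5 target, stood at 135 CPM in the double mutant and 4.78 CPM in Mx, 28.2-fold higher (20.3 to 40.1). The whole STAT5 and cytokine feedback list, Socs2 and Osm included, was mixed, with 11 of 23 genes higher and 6 lower. Its median was 0.36 against 0.16 for all genes. Dusp6, an ERK phosphatase, was among the lower ones, at 22.5 CPM in the double mutant and 70.4 CPM in Mx, 3.13-fold lower (2.48 to 4.01). Mycn, a Myc family factor of stem cells, stood at 338 CPM in the double mutant and 133 CPM in Mx, 2.55-fold higher.

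Some of the highest double mutant ratios came from genes nearly silent in the other libraries. Igfbp7, a secreted IGF-binding protein, stood at 3.1 CPM in NPMc+, 5.79 in Flt3-ITD, 208 in the double mutant and 0.245 CPM (2 UMIs) in Mx, 850-fold higher in the double mutant (235 to 7033). Gdf10, a ligand of the TGF-beta family, had 0 UMIs in NPMc+, Flt3-ITD and Mx and stood at 82.3 CPM in the double mutant, at least 224-fold higher than Mx. Clec2i, a C-type lectin, stood at 76.8 CPM in the double mutant and 0.368 CPM in Mx, 209-fold higher (70.7 to 1019). Ctsg, the granule protease cathepsin G, stood at 17.2 CPM in NPMc+, 16.5 in Flt3-ITD, 101 in the double mutant and 0.858 CPM in Mx, 118-fold higher in the double mutant (56.6 to 295). Actr3b, an actin-related protein gene, stood at 66.3 CPM in the double mutant and 1.35 CPM in Mx, 49.1-fold higher. Akr1c12, an aldo-keto reductase with near-identical relatives, stood at 368 CPM in the double mutant and 7.36 CPM in Mx.

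Some T-lineage genes were higher too. Of 27 T-lineage genes in the tables only 8 passed the floor, some of them only through the double mutant, so their count is not given. Thy1 stood at 135 CPM in the double mutant and 9.32 CPM in Mx, 14.5-fold higher, and Lck, a kinase of T cell receptor signalling, at 89.8 CPM in the double mutant and 10.5 CPM in Mx, 8.52-fold higher. The double mutant library held 748 kept cells with T cell transcripts, 12 of which (1.6%) met the double-positive rule, and the T or NK marker sum moved with these genes as given above. Cd3e, Cd3g and Trbc2 were at 0 in the double-positive double mutant cells. The part of free RNA from the T-lineage cells of that library was not tested.

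Genes for translation split by kind. Of 83 measured ribosomal protein genes, 1 was at least 1.5-fold higher and 44 lower in the double mutant, with a median of -0.72, while the same list gave 1 and 1 in NPMc+ (median -0.04) and 1 and 2 in Flt3-ITD (median -0.07). In the double mutant 38 of the 83 lay within 1.5-fold of Mx. The other kept cells gave nearly the same there, with 1 higher and 46 lower and a median of -0.77. Thinned double-positive cells held a median of 1472 ribosomal protein UMIs in NPMc+, 1480 in Flt3-ITD, 1081 in the double mutant and 1551 in Mx. Of 46 ribosome biogenesis and MYC target genes, 18 were higher and 2 lower in the double mutant, with a median of 0.54, and Srm, spermidine synthase, stood at 196 CPM there and 80.4 CPM in Mx. Heat shock genes gave 15 of 31 higher and 1 lower, with a median of 0.57. Dnmt3b, a DNA methyltransferase, stood at 83.2 CPM in the double mutant and 42.7 CPM in Mx, 1.95-fold higher.

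**Figure D4:**
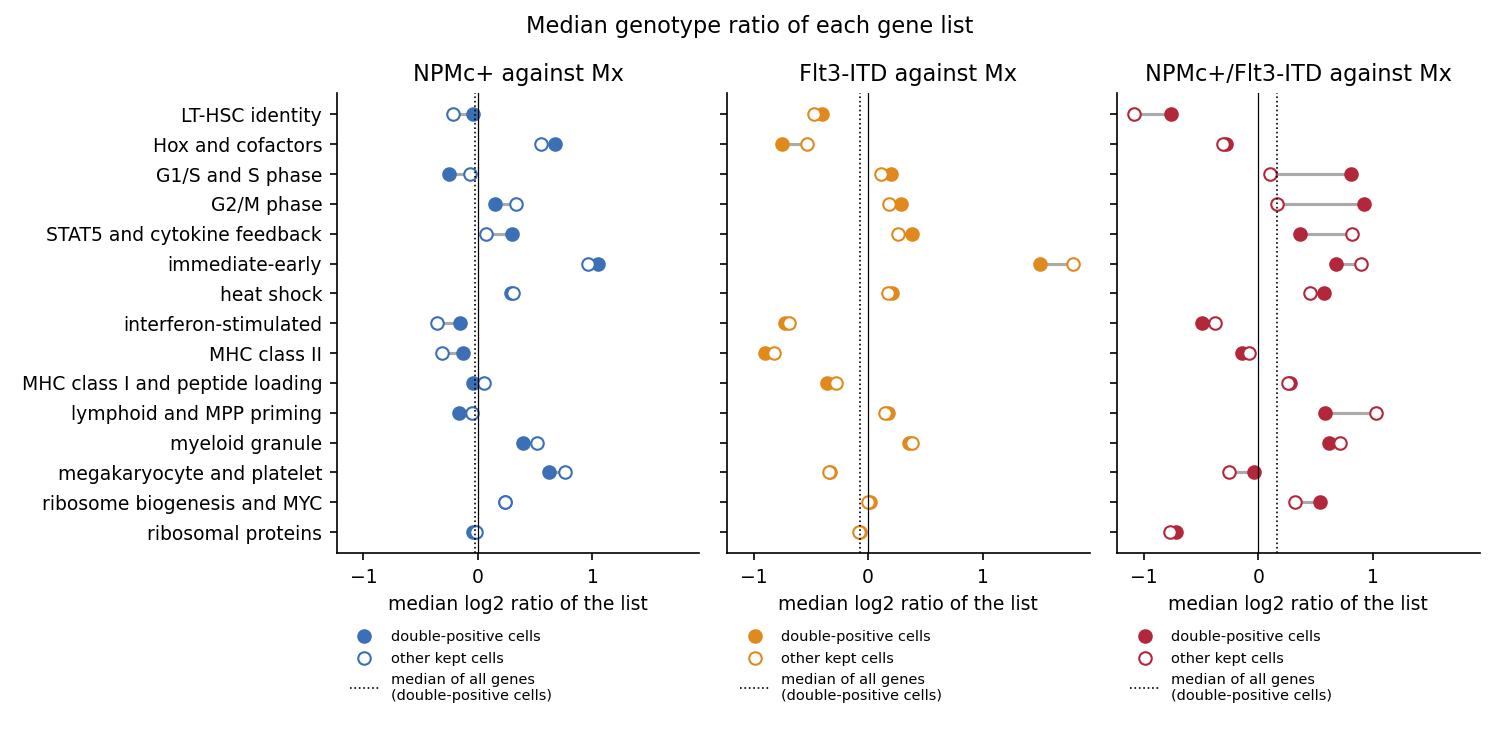
Median log2 ratio against Mx (horizontal axes) of 15 gene lists (rows) in each mutant (panels), in double-positive cells (filled circles) and in the other kept cells (open circles), with the median of all genes in double-positive cells as a dotted line. Most pairs lie close together, and pairs lie apart in the double mutant for G1/S and S phase (0.81 in double-positive cells and 0.1 in the others) and G2/M phase (0.92 and 0.16).

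The double mutant was also set against each single mutant, among double-positive cells. Against NPMc+, 371 genes (4.34%) were higher by 2-fold or more and 421 (4.93%) lower, and against Flt3-ITD 307 (3.59%) were higher and 428 (5.01%) lower. The median of all genes was 0.19 against NPMc+ and 0.25 against Flt3-ITD. The share of higher genes among these again depended on scaling: against NPMc+ it was 46.8% by total UMIs, 34% with TMM factors and 34.7% without mitochondrial and ribosomal protein genes, and against Flt3-ITD 41.8%, 26.5% and 29.9%. At 1.5-fold, the shares of all genes were 15.1% higher and 8.79% lower against NPMc+, and 16.7% and 8.54% against Flt3-ITD.

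Against NPMc+, the Hox and stem cell genes were lower in the double mutant. Of the 13 Hox and cofactor genes, 0 were higher and 8 lower, with a median of -0.97, and Hoxb2 stood at 1.39 CPM in the double mutant and 33.9 CPM in NPMc+, 24.4-fold lower. Among the 5 within 1.5-fold, Hoxa5 stood at 52.1 CPM in the double mutant and 51.6 CPM in NPMc+, and Hoxa7 at 104 CPM in the double mutant and 101 CPM in NPMc+. From the LT-HSC identity list 3 genes were higher and 24 lower, with a median of -0.66. Sult1a1 stood at 6.38 CPM in the double mutant and 149 CPM in NPMc+, 23.4-fold lower, and Mllt3 was 8.55-fold lower. Of 24 megakaryocyte genes 3 were higher and 12 lower, and of the 40 G1/S and S phase genes 37 were higher and 0 lower, with a median of 1.14.

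Against Flt3-ITD, immediate-early genes were lower and MHC genes higher in the double mutant. Of the 30 immediate-early genes 0 were higher and 20 lower, with a median of -0.83, and Nr4a1 stood at 109 CPM in the double mutant and 762 CPM in Flt3-ITD, 7.01-fold lower. Id3 stood at 3.88 CPM in the double mutant and 51.3 CPM in Flt3-ITD, 13.2-fold lower. Of the 8 class II genes 5 were higher and 0 lower with a median of 0.96, and of 22 class I genes 12 were higher and 0 lower with a median of 0.61. Cd74 stood at 412 CPM in the double mutant and 108 CPM in Flt3-ITD, 3.82-fold higher. Cd48 was 4.28-fold higher, Dntt 7.02-fold higher and Socs2 2.33-fold higher than in Flt3-ITD. From the LT-HSC identity list 5 genes were higher and 16 lower, with a median of -0.36.

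The question of which genotype differences remain in transcriptionally defined stem cells was taken up over all measured genes. These had passed the floor in double-positive cells. A gene below it there was left out, however high it stood in the other cells. The shares of differences that remain may be raised by this, to an extent that was not tested. Double-positive and other cells of a library share its free RNA and handling, and many of the others lie just outside the rule. How far this makes both sets alike was not tested. In the other kept cells, 125 genes (1.46%) in NPMc+ stood 2-fold or more above Mx and 283 (3.31%) 2-fold or more below it. Of the 125 higher genes 98 (78.4%) were also 2-fold higher among double-positive cells, but of the 283 lower genes only 101 (35.7%) were also 2-fold lower, with 105 between 1.5-fold and 2-fold, 76 within 1.5-fold and 1 opposite. Taken from the double-positive side, 98 of 145 higher genes (67.6%) and 101 of 145 lower genes (69.7%) were also 2-fold apart in the other cells. Holding the other cells to 0 UMIs of Mki67 left this nearly as it was, at 106 (36.6%) of 290 lower genes (3.39% of those measured).

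In Flt3-ITD most differences were found on both sides of the rule. Of 190 genes (2.22%) higher in the other cells 159 (83.7%) were also 2-fold higher in double-positive cells, and of 153 lower ones (1.79%) 101 (66%) were also lower. From the double-positive side the shares were 159 of 206 (77.2%) and 101 of 159 (63.5%). Dntt differed most in size, at 101-fold higher among double-positive cells and 8.39-fold among the others.

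In the double mutant 387 genes (4.53%) were higher and 504 (5.9%) lower in the other cells. Of these, 283 (73.1%) were also 2-fold higher and 427 (84.7%) also 2-fold lower in double-positive cells. From the double-positive side the shares were 283 of 410 (69%) and 427 of 516 (82.8%). With T-lineage cells left out of the other cells, 287 (83.7%) of 343 higher genes (4.01% of those measured) and 423 (90.6%) of 467 lower genes (5.47%) were shared. Rora and Etv5 lay on opposite sides in the 2 sets of cells. Rora, a nuclear receptor of lymphoid cells, stood at 8.87 CPM in the double mutant and 33.5 CPM in Mx among double-positive cells, 3.77-fold lower (2.61 to 5.63), and at 42.3 CPM in the double mutant and 20.6 CPM in Mx among the others, 2.05-fold higher. Etv5, an ETS family factor, stood at 3.88 CPM in the double mutant and 13.7 CPM in Mx among double-positive cells, 3.54-fold lower (2.02 to 6.68), and at 21 CPM in the double mutant and 11.9 CPM in Mx among the others, 1.76-fold higher. Without T-lineage cells the others were lower too, 1.91-fold for Rora and 3.53-fold for Etv5.

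**Figure D5:**
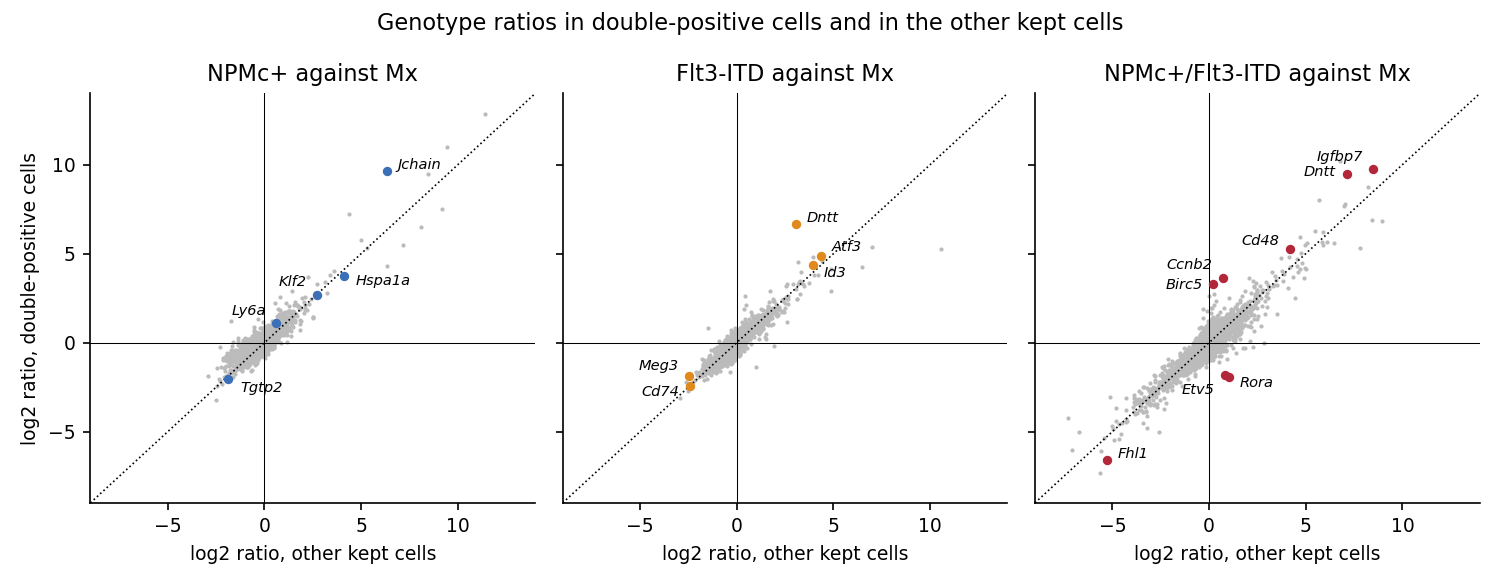
Log2 ratio against Mx of each measured gene in double-positive cells (vertical axes) against its ratio in the other kept cells (horizontal axes), 1 panel per mutant, with named genes in colour, the line of equal ratios dotted and a count of 0 set to the floor of 3 counts. Most genes follow the dotted line, Rora and Etv5 lie below 0 on the vertical axis and above 0 on the horizontal axis in the double mutant, and Birc5 and Ccnb2 lie far above the line.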

How the data were processed

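The deposited files were UMI count tables per gene and barcode. Per the submitters' processing notes, the authors used STARsolo (STAR 2.7.0c) and the mm10 build. Cell filters and strand settings are not given in the sources used here. Gene coordinates came from GENCODE M21. The tables held 11407 barcodes, 26687 genes and 95244127 UMIs, with no barcode below 101 UMIs. Cells, members and gene lists were chosen with earlier results of these data known.

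Counts of double-positive cells were summed per library and divided by their total (CPM). Ratios carry exact conditional 95% intervals, shares Clopper-Pearson intervals, both for counting error only; no p-values were computed, since cells are not replicates. Where a library had 0 UMIs, a floor of 3 counts gave the ratio. Of 872 listed gene names 868 were in the tables. Markers were listed apart. T cells had at least 5 UMIs over Cd3e, Cd3g, Cd3d, Trbc1, Trbc2, Lck and Bcl11b. Sex was called from Xist and Y-linked UMIs.

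Genes were named by rule: in each comparison with Mx the 10 highest and 10 lowest ratios (4 and 4 between mutants), the 3 members of each list furthest from no difference, the 6 genes that differ most between double-positive and other cells, and 18 genes named always. The ranking left out Procr, Hlf, Mki67, predicted, mitochondrial, ribosomal, receptor-segment and sex-linked genes. Not every gene so chosen is described. Igkc, Gm5611, Trbc1 and Tcrg-C1 lay outside the rule.

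Alternatives were TMM scaling (edgeR 4.0.16, R 4.3.3), a total without mitochondrial and ribosomal protein genes, equal weight per cell, the top 1% of cells per gene left out, 1 sex at a time, cycling cells left out, stricter cell filters, at least 2 UMIs of Procr and Hlf, no Mki67 condition, no floor or 50 CPM, cells above the 99th UMI percentile left out, and thinning to 5000 UMIs. Thinned double-positive cells, cells with other-lineage markers left out, other cells without Mki67 or T-lineage transcripts, and the NPMc+ cell with the most Jchain UMIs left out were added after the data had been seen. Code ran in Python 3.11.15 with numpy 2.4.6, scipy 1.17.1, pandas 2.3.3 and matplotlib 3.10.9, and was tested on simulated data.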

Additional observations from a re-analysis of the deposited data

Results flagged for a closer look

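Rora and Etv5 lay on opposite sides of Mx in the double mutant, depending on the cells. Rora had a log2 ratio of -1.92 in double-positive cells and 1.04 in the other kept cells, and Etv5 -1.82 and 0.82. The difference between the 2 sets of cells was not tested, since each genotype has 1 library. With T-lineage cells left out of the other kept cells, the log2 ratios there were -0.93 for Rora and -1.82 for Etv5, on the same side as in double-positive cells.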

How the results depend on the processing

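No paired analysis was possible because each genotype has 1 library. No gene list median put through the alternatives changed sign where it stood at 1.5-fold or more. The ribosomal protein and mitochondrial lists, and the settings with no floor or 50 CPM, were not part of this check. Of the alternative values for gene lists, 1865 stayed within 1.5-fold of the main one and 7 moved further. Among printed genes the sign of a 2-fold ratio changed for Jchain between the double mutant and Flt3-ITD, at 1.06 with at least 2 UMIs of each gene and 0.59 with cells chosen after thinning, and for Birc5 in the same comparison, at -0.82 with cells chosen after thinning. The cause was not tested.

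The share of double-positive cells was 12.1% in NPMc+, 5.27% in Flt3-ITD, 1.87% in the double mutant and 15.5% in Mx with at least 2 UMIs of each gene, 32.2%, 22.1%, 12.4% and 41.2% with no condition on Mki67, and 18.7%, 11.5%, 6.25% and 28.5% after thinning.

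Without a floor, which adds low genes, the counts of genes at least 2-fold higher and lower were 1144 and 1910 (NPMc+), 1189 and 1697 (Flt3-ITD), 1938 and 2237 (double mutant), 1526 and 1691 for the double mutant against NPMc+, and 1531 and 1695 against Flt3-ITD. With a floor of 50 CPM they were 57 and 34, 81 and 36, 141 and 200, 97 and 175, and 60 and 193. With mitochondrial and ribosomal protein genes left out of the total, 249 genes were lower in NPMc+, 278 in Flt3-ITD and 874 in the double mutant. With fewer cells, 318 genes were lower in Flt3-ITD in male cells, 240 in female cells, 274 with at least 2 UMIs and 307 after thinning, and 295 in NPMc+ in female cells. Between the double mutant and Flt3-ITD, 195 genes were higher with TMM, 648 with at least 2 UMIs and 660 after thinning. The other 133 alternative counts stayed within 1.5 times.

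Leaving out every cell with 2 UMIs of other-lineage markers kept 18 cells in NPMc+, 26 in Flt3-ITD, 9 in the double mutant and 85 in Mx, and was not run. Female double mutant cells (30) were too few. Depth limits genes near 1 UMI in 362 double mutant cells, whose intervals are the widest.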

Other observations

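Other gene groups in double-positive cells differed from Mx in part. Of 33 measured quiescence genes, 11 were at least 1.5-fold higher and 4 lower in NPMc+ (median 0.09), and 10 were higher and 10 lower in the double mutant (median -0.00). The summed UMIs of this list gave another picture: thinned cells held a median of 42 UMIs in NPMc+, 56 in Flt3-ITD, 37 in the double mutant and 23 in Mx. Of 39 chromatin regulator genes, 0 were higher and 8 lower in NPMc+, with a median of -0.31. Of 27 genes of NF-kB signalling and inflammation, 9 were higher and 1 lower in NPMc+ and 9 higher and 2 lower in Flt3-ITD. Among 30 glycolysis and hypoxia genes, 9 were higher and 2 lower in the double mutant, and among 65 genes of oxidative phosphorylation 8 were higher and 22 lower.

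Dusp5, a phosphatase that restrains ERK signalling, stood at 55.9 CPM in NPMc+, 263 in Flt3-ITD, 224 in the double mutant and 24.6 CPM in Mx, 10.7-fold higher (9.2 to 12.5) in Flt3-ITD. Cd69, an early activation antigen that retains lymphocytes in tissue, stood at 71.7 CPM in NPMc+, 92.9 in Flt3-ITD, 276 in the double mutant and 10.4 CPM in Mx. F2r, the thrombin receptor, stood at 98.6 CPM in NPMc+, 120 in Flt3-ITD, 230 in the double mutant and 50 CPM in Mx, so it was higher in each mutant. Xbp1, a factor of the unfolded protein response, stood at 123 CPM in NPMc+, 93.8 in Flt3-ITD, 291 in the double mutant and 74.2 CPM in Mx. Esam, an adhesion molecule of endothelium and stem cells, was close to Mx in Flt3-ITD and low in the double mutant, at 92.8 CPM in NPMc+, 113 in Flt3-ITD, 39.1 in the double mutant and 115 CPM in Mx. These values were chosen from the named genes after they were seen.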
